A study of Homo sapiens with 6 samples.

Results

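The transcripts described here belong to 9 genes of the human interferon response. They are the transcription factors STAT2, IRF1, IRF3, IRF7 and IRF9, the interferon-stimulated genes IFIT5, ISG15 and OAS3, and the RNA sensor gene IFIH1. They were taken by symbol from a table of 63643 genes, and all 9 had a row. RNA came from HEK293T, an established human embryonic kidney line that carries the SV40 large T antigen. Per the labels, the cells in both groups lacked GLO1, the enzyme that starts the main route of methylglyoxal clearance, so no group has the enzyme intact, and the sources used here do not say whether the line is a single clone. The MGO group (3 libraries) received 60 µM methylglyoxal (MGO), a reactive by-product of glycolysis, for 4 h, and the Control group (3 libraries) was untreated. The study asked whether MGO changes transcription in the way the stress programme its authors call the ISR does, and the labels name no interferon treatment.

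Cells make interferon when sensors such as MDA5, the product of IFIH1, bind viral or other double-stranded RNA and signal through MAVS and the kinase TBK1 to IRF3 and IRF7. Secreted type I interferon binds IFNAR1 and IFNAR2, the kinases JAK1 and TYK2 phosphorylate STAT proteins, and STAT2 acts with IRF9 in the complex ISGF3. ISGF3 binds the interferon-stimulated response element (ISRE) in promoters of interferon-stimulated genes, whereas the gamma-activated site (GAS) is bound by STAT dimers, for instance at IRF1.

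Promoter letters are shown first because ISG15, raised after MGO with TMM scaling (−0.13 on the log2 scale with TPM scaling, explained with the values), and OAS3 and IFIH1, lowered under both, carried the same element. In the 250 bases before the RefSeq start (GRCh38.p14), the ISRE core (GAAA, any 2 bases, GAAA) was searched on both strands, and the GAS core TTCNNNGAA, which reads the same on both strands. The ISRE core was found in 1061 of 35116 promoter windows (3.02%) and the GAS core in 2306 (6.57%). Of the 9 members, 7 matched the promoter table, and 4 of these 7 held the ISRE core. Those 4 and the GAS-bearing IRF1 are printed 5′ to 3′ along the gene, with the matching letters in capitals.
ISG15, chr1:1013247-1013496, plus strand: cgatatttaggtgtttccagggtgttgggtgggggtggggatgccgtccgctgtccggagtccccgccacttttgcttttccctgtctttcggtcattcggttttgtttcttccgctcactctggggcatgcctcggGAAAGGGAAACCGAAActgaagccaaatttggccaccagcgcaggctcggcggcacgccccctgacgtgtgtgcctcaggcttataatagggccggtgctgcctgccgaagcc
OAS3, chr12:112938224-112938473, plus strand: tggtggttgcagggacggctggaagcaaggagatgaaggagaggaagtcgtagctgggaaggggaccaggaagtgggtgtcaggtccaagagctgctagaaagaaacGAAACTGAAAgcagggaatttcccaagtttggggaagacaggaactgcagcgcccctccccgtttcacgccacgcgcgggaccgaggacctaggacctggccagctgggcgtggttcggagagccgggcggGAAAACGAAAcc
IFIT5, chr10:89414318-89414567, plus strand: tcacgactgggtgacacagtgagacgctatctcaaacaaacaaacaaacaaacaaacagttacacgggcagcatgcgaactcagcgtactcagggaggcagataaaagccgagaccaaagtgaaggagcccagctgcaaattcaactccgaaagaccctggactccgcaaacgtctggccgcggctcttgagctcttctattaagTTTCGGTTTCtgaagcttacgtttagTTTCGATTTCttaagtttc
IFIH1, chr2:162318685-162318934, minus strand: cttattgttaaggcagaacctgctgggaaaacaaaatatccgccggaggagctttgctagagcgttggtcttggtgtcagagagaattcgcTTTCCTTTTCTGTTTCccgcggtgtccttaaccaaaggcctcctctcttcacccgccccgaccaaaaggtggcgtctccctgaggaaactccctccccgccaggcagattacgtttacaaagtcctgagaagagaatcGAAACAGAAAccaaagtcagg
IRF1, chr5:132490774-132491023, minus strand: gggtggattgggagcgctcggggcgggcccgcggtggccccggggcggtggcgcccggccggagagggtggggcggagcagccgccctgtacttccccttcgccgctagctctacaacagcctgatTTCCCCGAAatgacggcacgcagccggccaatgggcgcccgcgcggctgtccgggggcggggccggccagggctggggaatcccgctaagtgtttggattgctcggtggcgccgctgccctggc
In ISG15 the overlapping matches GAAAGGGAAA and GAAACCGAAA began 113 and 107 bases before the start. In OAS3 GAAACTGAAA began 143 and GAAAACGAAA 12 bases before it. IFIT5 held its matches on the opposite strand, reaching 45 and 19 bases before the start, and IFIH1 held 3, of which the nearest began 21 bases before it. IRF1 held TTCCCCGAA 124 bases before its start. STAT2 held neither core in this window, and IRF9 held the GAS core TTCTGGGAA. A match is a description of letters, not of binding.

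Total counts lay between 128270160 and 138680220 in MGO libraries and between 117427883 and 157639431 in Control libraries. Levels are CPM, the count of a gene relative to the TMM-scaled total of its library, a scaling that assumes that most genes do not change. They are given with mean ± SD over the 3 libraries of a group. Of the 23109 genes that passed the filter on low counts and were tested, 79.3% were called changed, 38.8% raised and 40.5% lowered after MGO (edgeR, adjusted p under 0.05), so a call on its own is common in these libraries. Raised genes made up 48.9% of the calls, against 30.6% when counts were scaled to library size alone and 13.4% when each library was scaled to its summed length-scaled counts, the total behind TPM, a level per transcript length. Relative to TMM, the median gene shifted in log2 fold change by −0.53 with library size alone, by 0.17 with upper quartile scaling and by −1.1 with TPM scaling. Of the 9 HEK293 line markers, all had counts, and their summed level was 1998 to 2240 CPM in MGO and 1044 to 1089 CPM in Control libraries. KRT8, KRT18 and VIM, which make up most of that sum, were raised (VIM −0.22 with TPM scaling), 5 of the 9 were lowered, PAX2 the most at −1.94, and the median was −0.94. Summed blood cell markers, 8 genes, reached 1.46 to 2.18 CPM in MGO and 1.11 to 1.58 CPM in Control libraries, and their part in the results was not tested. PTPRC, which defines white blood cells, had at most 10 counts in any library. Summed fibroblast markers stood at 5.72 to 6.16 and 16.3 to 17.6 CPM, and summed epithelial markers at 1658 to 1895 and 609.7 to 640.5 CPM. COL1A1 (−1.70) made up most of the fibroblast sum. Of 3 fibroblast markers tested, 1 was raised and 2 lowered, or 0 and 3 with TPM scaling. KRT8, KRT18 and KRT19 made up most of the epithelial sum, and CDH1 was lowered (−1.56). Of 5 epithelial markers tested, 4 were raised and 1 lowered, or 3 and 2 with TPM scaling. All-gene shares with TPM scaling were 11.2% and 72.5%.

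With TMM scaling the members were split between raised and lowered, as were all genes tested. Of the 8 members tested, IRF1, IRF3, IRF7 and ISG15 were raised, STAT2, OAS3 and IFIH1 were lowered and IFIT5 did not pass the threshold. The ninth, IRF9, had too few counts to test. The 4 raised and 3 lowered genes are 50% and 37.5% of the 8, beside 38.8% and 40.5% of all genes tested. The CPM ranges of the groups did not overlap for any of the 8, which was also so for 81.5% of all genes (MGO above in 39.7%, MGO below in 41.8%). Upper quartile scaling called 5 members raised and 3 lowered, beside 43.8% and 36% of all genes, and TPM scaling called 1 raised and 4 lowered, beside 11.2% and 72.5%. Library size alone called 4 raised and 4 lowered, beside 24.5% and 55.8%. The median log2 fold change over the 8 was 0.54, or 0.01 with library size alone and −0.58 with TPM scaling, beside −0.02, −0.55 and −1.14 over all genes. In bulk RNA, fewer cells expressing a gene and less RNA per cell cannot be told apart.

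**Figure D1:**
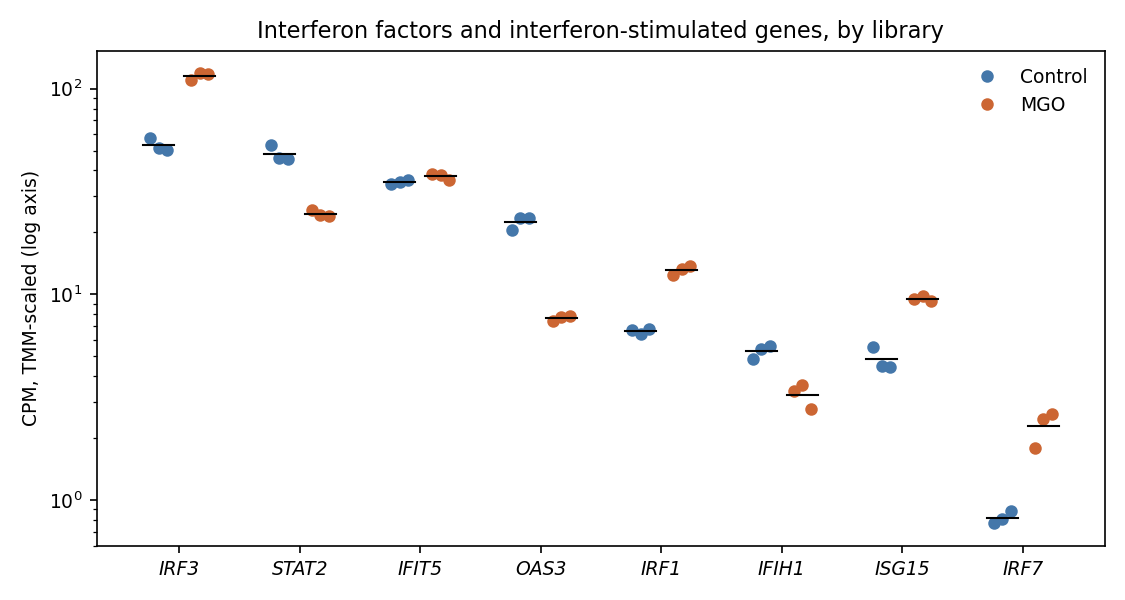
CPM after TMM scaling (log axis) of the 8 tested members in each of the 3 Control and 3 MGO libraries, with points for libraries and lines for group means. IRF3, IRF1, ISG15 and IRF7 lie higher in MGO on this scaling (with TPM scaling the values of IRF1 and ISG15 turn to −0.13 each and that of IRF3 is 0.01), STAT2, OAS3 and IFIH1 lie lower, and the IFIT5 groups lie close together.

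STAT2 (chr12:56341597-56360155, minus strand) encodes the STAT that carries the transactivation domain of ISGF3. It stood at 25.6, 24.2 and 24.1 CPM in MGO replicates 1 to 3 and at 53.2, 45.8 and 45.7 CPM in Control replicates 1 to 3. Every Control library was above every MGO library, with Control replicate 1 the highest. The log2 fold change was −0.97 (SE 0.07, adjusted p = 1.02e-07). It stayed negative under each scaling, at −1.49 with library size alone and −2.08 with TPM scaling.

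IRF9 (chr14:24161053-24166565, plus strand), the DNA-binding subunit of ISGF3, is listed with 0 counts in the 3 MGO libraries and with 1, 0 and 1 counts in the Control libraries. It could not be tested. GENCODE places the read-through gene ENSG00000259529 over the whole of IRF9 on the same strand. That gene also covers part of the upstream neighbour RNF31, a ubiquitin ligase subunit. ENSG00000259529 is listed at 0 in all 6 libraries and RNF31 has 1 count in total. The sources used here do not say how reads in overlapping genes were counted, and these zeros are therefore no measure of whether IRF9 was expressed.

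IRF3 (chr19:49659569-49665875, minus strand) encodes the constitutive factor that sensors activate by phosphorylation. Its levels were 109.6, 118.7 and 117.6 CPM in MGO and 57.5, 51.3 and 50.1 CPM in Control libraries. The groups were well apart, and the lowest MGO library was above the highest Control library. On the log2 scale the change was 1.12 (SE 0.07, adjusted p = 1.41e-08), a rise that ended with TPM scaling (0.01, adjusted p = 0.925). IRF3 overlaps BCL2L12, a gene of the BCL2 family, head to head on the opposite strand. BCL2L12 changed by 1.23 (SE 0.07) with TMM scaling, the only scaling given for it. The sources used here do not give the strand setting of the counting, so reads in the overlap cannot be told apart.

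IRF7 (chr11:612553-615999, minus strand) encodes the factor that amplifies interferon production and is itself interferon-inducible. It had 198, 279 and 299 counts in MGO and 110, 153 and 153 in Control libraries, or 1.80, 2.47 and 2.61 CPM against 0.772, 0.809 and 0.881 CPM. MGO replicate 1 was the lowest of its group, and the groups did not overlap. The log2 fold change of 1.48 (SE 0.15, adjusted p = 1.89e-06) was the largest rise among the members with TMM scaling. It was 0.95 with library size alone and 0.36 with TPM scaling (adjusted p = 0.0356), the lowest value of any alternative.

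IRF1 (chr5:132481609-132490798, minus strand) encodes a factor that is known to be rapidly induced by several stimuli and drives antigen presentation genes. It stood at 12.4, 13.3 and 13.8 CPM in MGO and at 6.74, 6.43 and 6.75 CPM in Control libraries. The libraries within each group lay close together. MGO gave a log2 fold change of 0.99 (SE 0.07, adjusted p = 7.94e-08), which turned to −0.13 with TPM scaling (adjusted p = 0.0969). The antisense gene IRF1-AS1 overlaps IRF1 on the opposite strand. It had 134, 135 and 135 counts in MGO and 182, 284 and 241 in Control libraries. With TMM scaling its log2 fold change was −0.22 (edgeR, adjusted p = 0.129). Its values with other scalings are not given, and the median gene shifted by −0.53 with library size alone and by −1.1 with TPM scaling.

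ISG15 (chr1:1001138-1014540, plus strand) encodes a ubiquitin-like protein that is attached to other proteins. Its levels were 9.44, 9.78 and 9.27 CPM in MGO and 5.57, 4.47 and 4.42 CPM in Control libraries. All MGO libraries were higher, and Control replicate 1 was the highest Control library. The log2 fold change was 0.98 (SE 0.10, adjusted p = 1.2e-06), which turned to −0.13 with TPM scaling (adjusted p = 0.225). Antisense and pseudogene annotations lie within its span on the opposite strand, with at most 254 counts in any library.

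IFIT5 (chr10:89414586-89421001, plus strand) belongs to the IFIT family, whose members bind viral and cellular RNA ends. It stood at 38.6, 38.0 and 36.0 CPM in MGO and at 34.5, 35.2 and 35.8 CPM in Control libraries. The lowest MGO library was just above the highest Control library. The log2 fold change was 0.09 (SE 0.06, adjusted p = 0.176). Its sign depended on the scaling: it was −0.43 with library size alone (adjusted p = 6.95e-05), −1.02 with TPM scaling (adjusted p = 4.77e-07) and 0.27 with upper quartile scaling (adjusted p = 0.00124).

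OAS3 (chr12:112938352-112973249, plus strand) encodes a synthetase that senses double-stranded RNA and then makes short 2-5A messengers. It fell from 20.6, 23.4 and 23.4 CPM in Control to 7.41, 7.73 and 7.88 CPM in MGO libraries. This was the largest fall among the members with TMM scaling, and the libraries of each group lay close together. The log2 fold change was −1.55 (SE 0.08, adjusted p = 1.8e-09), and −2.08 and −2.67 with library size alone and TPM scaling. With the trend on its longest transcript removed it was −0.46, the smallest of the 3 falls, beside −0.91 for STAT2 and −0.52 for IFIH1. With the trend on median transcript length removed it was −2.004, the largest of the 3, beside −0.68 and −0.29.

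IFIH1 (chr2:162267079-162318703, minus strand), the MDA5 gene, stood at 3.38, 3.61 and 2.76 CPM in MGO and at 4.85, 5.44 and 5.63 CPM in Control libraries. MGO replicate 3 was the lowest. Between groups the log2 fold change was −0.71 (SE 0.11, adjusted p = 8.63e-05). It was −1.23 with library size alone, −1.82 with TPM scaling and −0.29 with the trend on median transcript length removed (edgeR, adjusted p = 0.027). Against a change of 1.5-fold in place of 0, the call ended (edgeR's glmTreat, adjusted p = 0.0859).

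**Figure D2:**
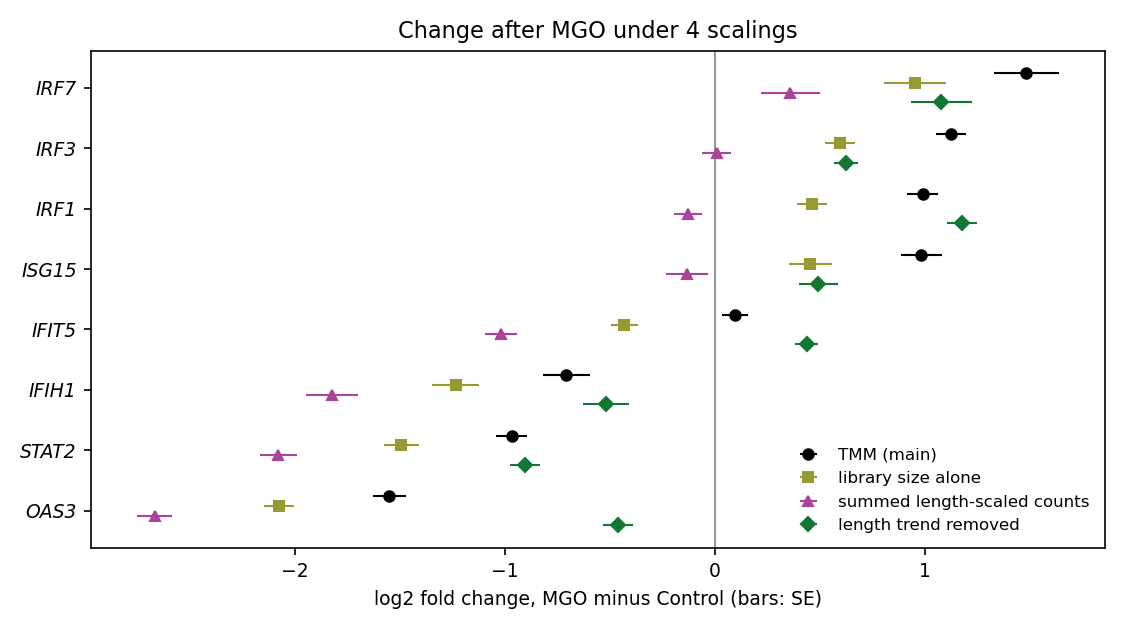
Log2 fold change (MGO minus Control, bars are SE) of the 8 tested members with TMM scaling, library size alone, TPM scaling (summed length-scaled counts) and after removal of the transcript length trend. STAT2, OAS3 and IFIH1 lie below 0 in all 4 and IRF7 above 0 in all 4. IRF1 and ISG15 cross to −0.13 and IRF3 drops to 0.01 with TPM scaling, and IFIT5 ranges from −1.02 to 0.44.

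Ratios of counts within a library do not depend on the scaling, and 4 were computed, chosen after the values were seen, of which 3 are given. IRF3 had 4.29, 4.90 and 4.87 counts per STAT2 count in MGO and 1.08, 1.12 and 1.10 in Control libraries. ISG15 had 1.27, 1.26 and 1.18 counts per OAS3 count in MGO and 0.271, 0.191 and 0.189 in Control libraries. IFIT5 had 4.90 ± 0.323 counts per OAS3 count in MGO and 1.57 ± 0.0948 in Control (SD, n = 3). The groups did not overlap for these 3 ratios. With TMM scaling each sets a member that was higher in every MGO library over one that was lower there, so the ratios restate those differences without the scaling and carry no test. Each also sets a shorter transcript over a longer one, and the ratios are not free of the length trend described below. With that trend removed ISG15 stood at 0.49 and OAS3 at −0.46, beside 0.98 and −1.55 with TMM scaling. IRF3 and STAT2 stood at 0.62 and −0.91, beside 1.12 and −0.97. IFIT5 stood at 0.44, beside 0.09.

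Levels of different genes were compared per length, as TPM on the longest basic transcript of each gene. In Control libraries the order was IRF3 (94.3 ± 6.19 TPM), STAT2 (45.8 ± 3.57), IFIT5 (27.2 ± 0.763), ISG15 (18.97 ± 2.32), OAS3 (10.4 ± 0.887), IRF1 (5.75 ± 0.0771), IFIH1 (4.58 ± 0.396) and IRF7 (1.24 ± 0.0880), and no neighbours overlapped. In MGO libraries IRF3 was again first at 94.7 ± 0.650 TPM. It was followed by ISG15 (17.3 ± 0.888), IFIT5 (13.4 ± 1.07), STAT2 (10.8 ± 0.910) and IRF1 (5.26 ± 0.102), which did not overlap each other. OAS3 (1.63 ± 0.0382), IRF7 (1.59 ± 0.232) and IFIH1 (1.30 ± 0.197) came last, where OAS3 overlapped IRF7 and IRF7 overlapped IFIH1. STAT2 thus moved from rank 2 to rank 4 and OAS3 from rank 5 to rank 6 among the members. The level of OAS3 rests on its transcript of 6719 nt, and the median over its basic transcripts is 1392 nt.

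**Figure D3:**
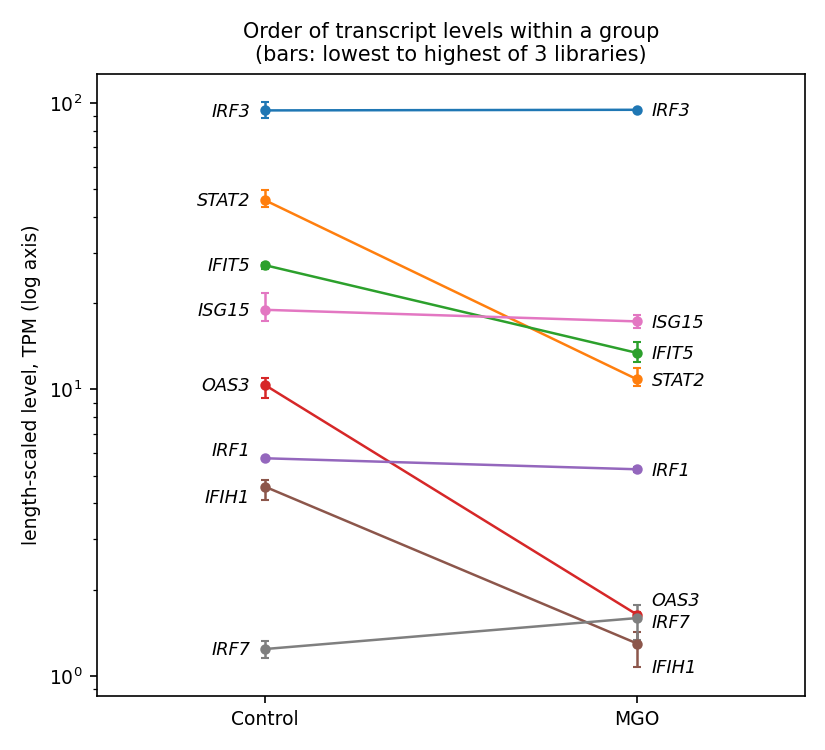
Length-scaled level (TPM, log axis) of the 8 tested members in Control and MGO, with points for means and bars from the lowest to the highest of 3 libraries. STAT2 drops below ISG15 and IFIT5 and OAS3 below IRF1, and OAS3, IRF7 and IFIH1 lie between 1.07 and 1.77 TPM in MGO libraries.

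Changes over all genes went with transcript length, and the members spread along it. In the fifth of tested genes with the longest transcripts (4856 nt and above) the median log2 fold change was −1.15 and 77.2% were lowered, while in the fifth from 953 to 2029 nt it was 0.67 and 59.3% were raised. The longest basic transcript has 787 nt for ISG15, 1741 nt for IRF3, 2051 nt for IRF7, 3259 nt for STAT2, 3579 nt for IRF1, 3595 nt for IFIH1, 4015 nt for IFIT5 and 6719 nt for OAS3. The shortest of them, ISG15, rose on the TMM scale (−0.13 with TPM scaling) and the longest, OAS3, fell the most. STAT2, IRF1 and IFIH1, which lie close together in length, changed by −0.97, 0.99 (−0.13 with TPM scaling) and −0.71.

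After the smooth trend of each library on transcript length was removed, the log2 fold changes were 1.17 for IRF1, 1.08 for IRF7, 0.62 for IRF3 and 0.49 for ISG15. STAT2 stood at −0.91, IFIH1 at −0.52 and OAS3 at −0.46, all past the threshold. IFIT5 passed it too, at 0.44 (adjusted p = 9.8e-06). With this removal 40% of all genes were called raised and 37.5% lowered. The fall of OAS3 was 1.55 before and 0.46 after the removal. The log2 fold change of OAS3 was −2.004 when the median over basic transcripts stood for the length, an alternative chosen after seeing the data. For IRF1 the median was 2061 nt and the value 0.83. The part of transcript length in the remaining values was not tested.

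**Figure D4:**
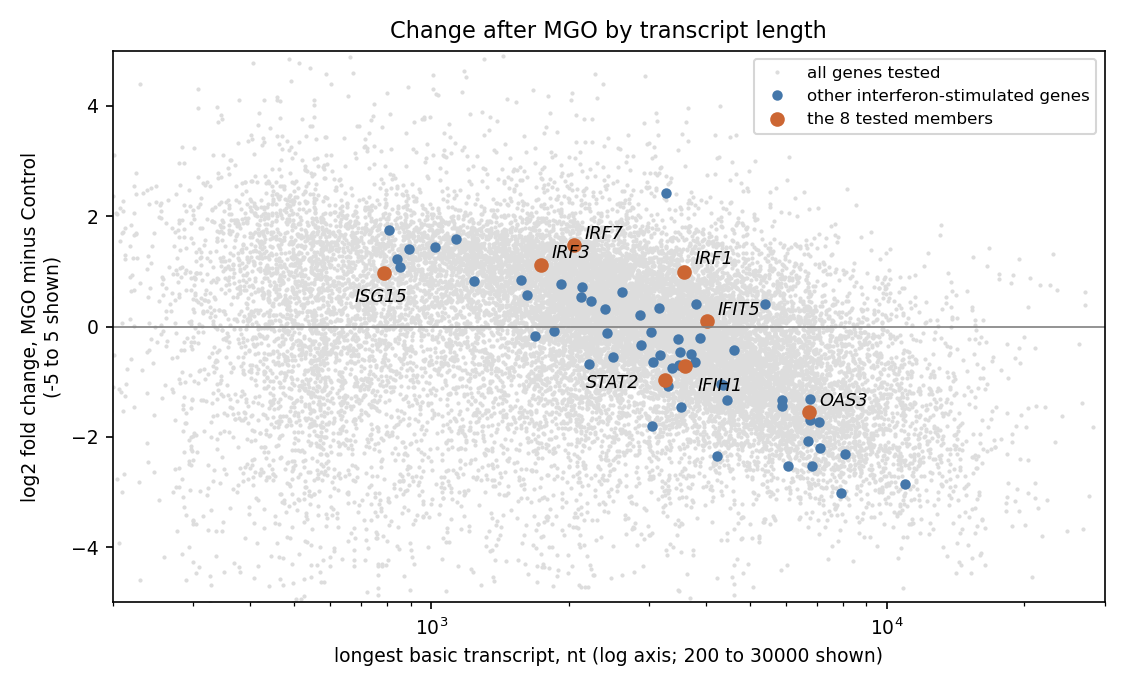
Log2 fold change (MGO minus Control, TMM scaling) against the longest basic transcript (nt, log axis) for all genes tested, the other interferon-stimulated genes of the list and the 8 tested members. Long transcripts lie mostly below 0, with OAS3 at 6719 nt and −1.55, and short ones mostly above, with ISG15 at 787 nt and 0.98 (−0.13 with TPM scaling).

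Of the 16 STAT and IRF factors, 15 were tested, and 6 were raised and 9 lowered, or 5 and 10 with library size alone, 6 and 5 with upper quartile and 1 and 12 with TPM scaling. Their median was −0.29, beside −0.02 over all genes. The 6 and 9 are 40% and 60% of the 15, beside 38.8% and 40.5% of all genes. All-gene shares were 24.5% and 55.8% with library size alone, 43.8% and 36% with upper quartile and 11.2% and 72.5% with TPM scaling. All 7 STAT genes were lowered on the TMM scale, with STAT3, a mediator of interleukin-6 signals, at −0.95 (−0.27 with the length trend removed) and STAT5B, a mediator of growth hormone and cytokine signals, at −1.49 (−0.80 with it removed). The raised genes were all IRFs: besides the members, IRF5 stood at 0.73, IRF8 at 0.77 and IRF2 at 0.27, and with TPM scaling at −0.39, −0.35 and −0.84. IRF4 was lowered (−0.24). With the length trend removed, STAT5A, STAT6 and IRF2 did not pass the threshold, and IRF4 was raised (0.52).

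Among 9 genes for interferon receptors and JAK kinases, 3 were raised and 6 lowered, or 2 and 6 with library size alone, 3 and 6 with upper quartile scaling, 1 and 8 with TPM scaling and 3 and 4 with the length trend removed. The 3 and 6 are 33.3% and 66.7% of the 9, beside 38.8% and 40.5% of all genes. All-gene shares were 24.5% and 55.8% with library size alone, 43.8% and 36% with upper quartile and 11.2% and 72.5% with TPM scaling. With the length trend removed they were 40% and 37.5%. The interferon-gamma receptor gene IFNGR1 stood at 51.3 ± 0.490 CPM in Control and 136 ± 5.22 CPM in MGO libraries, a rise of 1.41 (0.30 with TPM scaling), and the interferon-lambda receptor gene IFNLR1 changed by 0.88 (−0.24 with TPM scaling). The type I receptor genes were lowered, IFNAR1 by −0.51 (0.45 with the length trend removed) and IFNAR2 by −1.55 (−1.11 with it removed). The kinase genes JAK1, JAK2 and TYK2 stood at −1.66, −1.81 and −0.63, and with the trend removed at −0.99, −1.07 and −0.17, where TYK2 did not pass the threshold (edgeR, adjusted p = 0.0573). IL10RB, a shared receptor chain, stood at −1.85. IFNGR2 was raised at 0.55 with TMM scaling (edgeR, adjusted p = 0.0235), though the CPM ranges of its groups overlapped. With the length trend removed it stood at 0.21 (edgeR, adjusted p = 0.35). It stood at 0.03 with library size alone (adjusted p = 0.91) and was lowered with TPM scaling (−0.57, edgeR adjusted p = 0.0293).

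Interferon ligand genes gave almost no reads. Of 22 ligand genes, 10 were at 0 in all libraries and 20 had under 10 counts over the 6. IFNB1 had 3 counts, all in Control replicate 3. IFNE, an epithelial type I interferon, was the ligand tested, with 8, 3 and 8 counts in MGO and 28, 35 and 35 in Control libraries (log2 fold change −1.77, SE 0.36, adjusted p = 0.00063).

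Of 22 nucleic acid sensors and adaptors, 16 were tested, and 5 were raised and 8 lowered, or 1 and 12 with library size alone, 6 and 8 with upper quartile scaling, 0 and 15 with TPM scaling and 3 and 7 with the length trend removed. The 5 and 8 are 31.2% and 50% of the 16, beside 38.8% and 40.5% of all genes. All-gene shares were 24.5% and 55.8% with library size alone, 43.8% and 36% with upper quartile and 11.2% and 72.5% with TPM scaling. With the length trend removed they were 40% and 37.5%. MAVS, the mitochondrial adaptor of MDA5, had 213 ± 6.75 CPM in Control and 52.3 ± 3.14 CPM in MGO libraries, a log2 fold change of −2.03 (SE 0.07). Its longest transcript has 11714 nt, and with the length trend removed it stood at −0.34. TRIM25, a ubiquitin ligase of the RIG-I pathway, and TRAF3, a ligase downstream of MAVS, stood at −1.94 and −1.86 (−1.07 and −0.61 with the trend removed). TRAF6, TBK1 and IKBKE, which act further down, stood at 0.82, 0.56 and 0.55 on the TMM scale and at −0.29, −0.55 and −0.57 with TPM scaling.

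Of 73 interferon-stimulated genes, which include 8 of the members, 63 were tested, and 23 were raised, 33 lowered and 7 not past the threshold. The split was 12 and 41 with library size alone, 24 and 30 with upper quartile and 4 and 52 with TPM scaling. Over all genes raised and lowered shares were 38.8% and 40.5% with TMM, 24.5% and 55.8% with library size alone, 43.8% and 36% with upper quartile and 11.2% and 72.5% with TPM scaling. The median log2 fold change was −0.42, beside −0.02 over all genes. Across the 63 genes, which share libraries and are not independent, Spearman's rho between transcript length and log2 fold change was −0.81, and it was −0.38 across 21663 genes of all kinds. At the high end of genes with a mean of at least 1 CPM, apart from IRF7, were IFITM3 (1.74, SE 0.10) and IFITM2 (1.415, SE 0.08), short membrane genes that restrict virus entry and share sequence with each other. Below that mean OASL (2.42), IFI30 (1.59) and BST2 (1.434) also stood above IFITM2. IFI30 had only 2 to 16 counts a library. With TPM scaling neither IFI30 (0.49, edgeR adjusted p = 0.376) nor BST2 (0.32, edgeR adjusted p = 0.0613) passed the threshold. At the low end were PARP14 (−3.01, SE 0.10), an ADP-ribosyltransferase, TRIM56 (−2.86, SE 0.08), a ubiquitin ligase, and DDX60 (−2.53, SE 0.10), a helicase. With the length trend removed IFITM3, IFITM2, PARP14, TRIM56 and DDX60 stood at 1.24, 0.88, −1.73, −1.24 and −1.58, and 17 of the 63 were raised and 30 lowered. Of all genes, 40% were raised and 37.5% lowered with this removal.

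Both raised and lowered genes of the list held the ISRE core. Of its 73 genes, 56 matched the promoter table and 32 of these held the core in the 250 bases before a start. By the TMM calls it was found in 11 of 17 raised, 14 of 25 lowered and 5 of 7 genes not past the threshold. Over all 63 tested genes of the list, matched or not, TPM scaling called 4 raised and 52 lowered. Its calls for the matched genes alone are not given. Whether the shares that held the core differ was not tested.

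**Figure D5:**
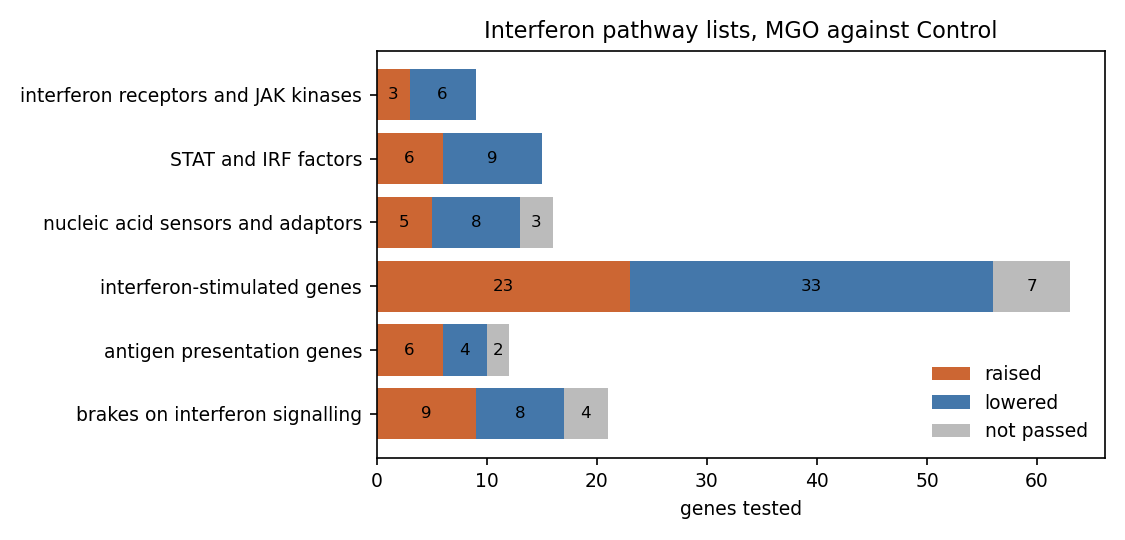
Number of tested genes raised, lowered and not past the threshold (edgeR, TMM scaling) in 6 interferon pathway lists, some of which share genes. The split depends on the scaling: STAT and IRF factors are 6 raised and 9 lowered here and 6 and 5 with upper quartile scaling, and interferon-stimulated genes are 23 and 33 here and 4 and 52 with TPM scaling. Of all genes tested 38.8% are raised and 40.5% lowered with TMM, 43.8% and 36% with upper quartile and 11.2% and 72.5% with TPM scaling.

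Of 16 antigen presentation genes, 12 were tested, and 6 were raised and 4 lowered, or 5 and 6 with library size alone, 6 and 4 with upper quartile scaling, 1 and 7 with TPM scaling and 8 and 3 with the length trend removed. The 6 and 4 are 50% and 33.3% of the 12, beside 38.8% and 40.5% of all genes. All-gene shares were 24.5% and 55.8% with library size alone, 43.8% and 36% with upper quartile and 11.2% and 72.5% with TPM scaling. With the length trend removed they were 40% and 37.5%. B2M, the light chain of class I molecules, changed by 1.41, HLA-F by 1.32 and HLA-B by 1.245, at 0.30, 0.20 and 0.13 with TPM scaling. HLA genes share reads with each other, so their values are uncertain. The peptide-trimming genes ERAP1 and ERAP2 were lowered (−1.417 and −2.25, or −0.61 and −1.39 with the length trend removed), and NLRC5, the class I transactivator, stood at −0.83 and at 0.28 with the length trend removed. PSMB8 and PSMB9 are listed at 0 in all libraries, and HLA-E has at most 4 and TAP1 at most 14 counts in any library. How reads in overlapping or repeated genes were counted is not stated. These low counts are therefore no measure of whether the genes were expressed.

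Of 22 brakes on interferon signalling, 21 were tested, and 9 were raised and 8 lowered, or 6 and 13 with library size alone, 10 and 8 with upper quartile scaling, 5 and 15 with TPM scaling and 12 and 4 with the length trend removed. The 9 and 8 are 42.9% and 38.1% of the 21, beside 38.8% and 40.5% of all genes. All-gene shares were 24.5% and 55.8% with library size alone, 43.8% and 36% with upper quartile and 11.2% and 72.5% with TPM scaling. With the length trend removed they were 40% and 37.5%. SOCS3 and SOCS1, which inhibit JAK kinases, rose under each scaling, by 2.38 and 1.97 with TMM and by 1.26 and 0.86 with TPM scaling. SOCS3 went from 2.67 ± 0.115 to 13.9 ± 1.51 CPM and SOCS1 from 0.518 ± 0.0478 to 2.04 ± 0.178 CPM. IRF2BP2, a co-repressor that binds IRF2, rose by 1.85 (0.73 with TPM scaling). PTPN11, the SHP2 phosphatase, had the largest fall of the list, −2.90 (−1.95 with the length trend removed), and RNF125 and PIAS4 stood at −0.84 and −0.82. With the trend removed RNF125 stood at 0.10 and did not pass the threshold (edgeR, adjusted p = 0.304), and PIAS4 stood at −0.79.

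The genes of these lists whose 6 library values were most like those of each member were found among 105 candidates, by the root mean square difference of centred log2 CPM values. STAT3 (0.113) was among those of STAT2. For IFIT5 the closest were TANK (0.0293) and PTPN2 (0.0487), for ISG15 IRF3 (0.0921) and IRF1 (0.113), for OAS3 STAT5B (0.0919) and IFNAR2 (0.102), and for IFIH1 NLRC5 (0.117) and PIAS4 (0.145). For IRF1 they were IFITM1 (0.0636) and UBE2L6 (0.0815), for IRF3 IFI6 (0.0764), and for IRF7 CISH (0.0813) and IRF2BPL (0.0923). With 2 groups of 3 libraries, this likeness is mostly a likeness of the group difference.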

How the data were processed

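Polyadenylated RNA of 6 HEK293T libraries was analysed. The authors deposited whole-number counts for each gene, without normalization. Per the submitters' processing notes, which give no order or settings, the build was hg38 and the tools included STAR (2.7.0a), featureCounts (2.0.6) and DESeq2 (1.42.0). The gene annotation, strand setting and treatment of reads in overlapping or repeated genes are not stated in the labels or notes.

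Here, edgeR 4.0.16 under R 4.3.3 was run on the counts (low-count filter filterByExpr with the group, TMM, quasi-likelihood test of MGO against Control, Benjamini-Hochberg adjustment over all 23109 genes tested, threshold 0.05). The SE of a log2 fold change is its size over the root of the F statistic. The steps were tested on simulated data. The labels do not call the replicates separate cultures. The p-values then measure only how these samples vary, which may be technical. Replicates of a group differed beyond sampling noise in every pair (chi-square over degrees of freedom at least 3.51), so none was treated as the same library deposited again, which does not show that they are biological replicates. Coordinates and transcript lengths come from GENCODE release 29 (GRCh38, the assembly of hg38), which matched 56774 rows, and promoters from RefSeq.

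The members and lists were chosen with earlier results of these data known. Named genes are the members, their partners in the pathway (JAK1, TYK2, IFNAR1 and IFNAR2 among them), the 3 largest rises and 3 largest falls of each list past the threshold at a mean of at least 1 CPM, and genes most like a member. Some genes that this rule names are not reported here. Others are named to complete a list and were chosen after their values were seen. Alternatives were RLE, upper quartile and library size scaling, other filters, DESeq2 1.42.0, limma-voom (limma 3.58.1), a replicate block, robust dispersions, a null of a 1.5-fold change, leaving out each library and removal of the length trend. TPM scaling and the median transcript length were added after the data were seen.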

Additional observations from a re-analysis of the deposited data

How the results depend on the processing

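Across 19 alternatives, STAT2, IRF7 and OAS3 kept their direction and their call in all, from −2.08 to −0.68, 0.36 to 1.66 and −2.67 to −0.46 on the log2 scale. IFIH1 kept its direction in all and lost its call against a 1.5-fold change. IRF1, IRF3 and ISG15 kept both in 18, and with TPM scaling stood at −0.13, 0.01 and −0.13. IFIT5 turned to −0.43 with library size alone and −1.02 with TPM scaling. The number of members raised was 4 or 5 except with TPM scaling, where it was 1, and 2 to 4 were lowered. Leaving out each library in turn gave 4 raised and 3 lowered members each time and 75.1 to 78.9% of all genes called. Without a filter on low counts 47.9% of genes were called, as more genes with few counts entered. Raised minus lowered genes among STAT and IRF factors were −3 in the main test and −5 with library size alone, −11 with TPM scaling, 1 with upper quartile scaling, 1 against a 1.5-fold change, 1 with the length trend removed and 3 with the trend on median length removed. Without 1 library each the difference was −3 to −1, and it was −1 (6 raised, 7 lowered) without MGO replicate 3. For interferon-stimulated genes it was −10, and −29 with library size alone, −6 with upper quartile and −48 with TPM scaling, and −11 to −8 without 1 library each. The cause of these differences was not tested.

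The replicate block gave 4 raised and 3 lowered members and 78.6% of all genes called. Same-numbered libraries had correlations of 0.0407, 0.0184 and 0.0127 between their deviations from the group means, and MGO replicate 2 correlated best with Control replicate 3 (0.0436), so the numbers were treated as names. Depth limits the ligands and IRF7, at 110 to 299 counts, more than the other members tested.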

Other observations

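Further genes known to act on RNA in antiviral defence are given as values. They were chosen after their values were seen and stand for no group. ADAR, which edits adenosine to inosine, went from 426 ± 26.6 CPM in Control to 101.5 ± 7.63 CPM in MGO (log2 fold change −2.07, SE 0.08, or −0.99 with the length trend removed). EIF2AK2, which encodes the kinase PKR, went from 110.7 ± 6.90 to 34.5 ± 3.71 CPM (−1.68, SE 0.08), and its longest transcript of 10042 nt went with a value of −0.15 once the trend was removed. ZC3HAV1, an antiviral RNA-binding protein gene, stood at −1.73 and at −0.58 with the trend removed. DHX58, which encodes the helicase LGP2 and has 48 to 82 counts a library, was raised at 0.63 (edgeR, adjusted p = 0.0298) and did not pass the threshold with the trend removed (0.44, adjusted p = 0.118).

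OASL, an OAS relative without synthetase activity, was among the few interferon-stimulated genes raised with TPM scaling as well. It had 43, 38 and 38 counts in MGO and 10, 17 and 6 in Control libraries, at a mean below 1 CPM in both groups (log2 fold change 2.42, SE 0.32, adjusted p = 1.62e-05, and 1.31 with TPM scaling).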
